A study of Mus musculus with 4 samples.

Results

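C1qa, C1qb and C1qc encode the A, B and C chains of C1q, the recognition subunit of the first component of complement. All 3 were taken by their symbols from the 27998 genes of the deposited lists, and each symbol had 1 row (C1qa, ENSMUSG00000036887; C1qb, ENSMUSG00000036905; C1qc, ENSMUSG00000036896). The mouse series has 4 single-cell libraries and as many groups, IgG, Ac, C and aC+C, so 1 library a group, from mice of 6 to 8 weeks. The labels do not spell out these names, give no strain, tumour model, dose or time that can be tied to them, and name no pooling of animals. The titles speak of immune cells that had infiltrated tumours, whereas the field for cell type and the extraction text give goblet cells, which secrete the mucus of the gut, from RedMUC298trTg mice. The data went against the second description: Ptprc, the gene of the leukocyte protein CD45, had a transcript in 87.0% to 91.3% of cells, and Muc2, the main mucin gene of goblet cells, had 2 to 4 counts in all cells of a library. Without replicates no test was made, and every interval below is an exact 95% interval for counting error only.

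C1q circulates as a bundle of collagen-like stalks with globular heads that bind antibody on a target, dying cells and other surfaces. On binding it activates the proteases C1r and C1s, which cleave C4 and C2 and so start the classical pathway. Unlike most complement proteins, which are made by the liver, C1q is made mainly by macrophages and some dendritic cells, and its transcripts are a common mark of macrophages in tumours.

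The 3 genes lie side by side on the minus strand of mouse chromosome 4 (GENCODE vM21, GRCm38, the assembly also called mm10). C1qb spans 136880129 to 136886187 and C1qc 136889804 to 136893065, with 3616 bases between them, and C1qa follows after 2851 bases, from 136895917 to 136898803. C1qa and C1qb have 1 annotated transcript with 3 exons, and C1qc has 2 transcripts with 2 and 3 exons. Since the members move together in what follows, the sequence just before the annotated start is shown for the 2 of them found in the promoter table (RefSeq, GRCm38.p6), C1qb at chr4:136886201-136886450 and C1qc at chr4:136893066-136893164, both read on the minus strand. The C1qc stretch is the shorter because it begins beyond the start of the longer GENCODE transcript. Capitals mark a match to 1 of 3 motifs searched on both strands, the PU.1 core GAGGAAG, the core of Maf sites TGCTGAC and the E-box CACGTG, which do not overlap each other here.
C1qb: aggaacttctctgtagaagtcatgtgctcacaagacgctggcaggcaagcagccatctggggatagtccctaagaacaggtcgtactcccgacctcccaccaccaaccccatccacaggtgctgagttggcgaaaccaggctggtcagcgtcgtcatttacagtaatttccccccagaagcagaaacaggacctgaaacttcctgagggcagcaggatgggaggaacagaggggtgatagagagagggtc
C1qc: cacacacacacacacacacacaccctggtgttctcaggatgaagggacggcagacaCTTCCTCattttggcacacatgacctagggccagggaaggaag
C1qc had 1 match to the PU.1 core, on the other strand (chr4:136893102-136893108), and C1qb had none of the 3 motifs. Of 32851 promoter windows of 300 bases in the table, 13.6% held the PU.1 core, 4.67% the core of Maf sites and 7.15% the E-box, so the match in C1qc is a description of these letters and no more.

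Barcodes with at least 1000 unique molecular identifiers (UMIs, 1 per captured transcript end) and at most 10% of them from mitochondrial genes were taken as cells. There were 3436 in IgG, 4028 in Ac, and 4210 and 4081 in C and aC+C, with median totals of 10492 to 11594 UMIs, out of library totals of 61519049 to 75665201 UMIs. Cells were sorted into 10 classes by their transcripts alone. Cells with at least 5 UMIs of Lyz2, the lysozyme gene of macrophages, monocytes and neutrophils, and none of the T cell gene Cd3e are called Lyz2 cells. They numbered 524 in IgG, 1035 in Ac, and 1207 and 1399 in C and aC+C, or 15.2%, 25.7%, 28.7% and 34.3% of cells. Between 2 and 7 cell barcodes were shared by any pair of libraries.

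C1q transcripts were found almost wholly in the Lyz2 classes. Levels are given as UMIs per 1000000 UMIs of a class (CPM), which counts transcript ends and does not grow with gene length. Lyz2 cells held 69.5% of all C1q UMIs of cells in IgG, 89.9% in Ac, and 73.0% and 91.0% in C and aC+C. Most of the remainder was in cells with both Lyz2 and Cd3e, which held 27.7%, 9.19%, 25.5% and 7.59%.

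The summed level of the 3 genes in Lyz2 cells was 6020.2 CPM in IgG (5962 to 6079), 8136 in Ac (8092 to 8181), 6086 in C (6051 to 6122) and 6108 in aC+C (6076 to 6141). Cells with both Lyz2 and Cd3e came next, at 2381, 4557, 2960.4 and 2959.8 CPM. Cells in no other class with 1 to 4 Lyz2 UMIs held 2538, 690, 1039 and 1550 CPM, in 63 to 123 cells a library. The ranges of these last classes overlapped, while the Lyz2 cells stood above both in every library. All other classes were far lower. Each range over the libraries overlapped the next, so neighbours could not be put in order. The rest without Lyz2 and the dendritic gate did lie above the mesenchymal gate with no overlap. The rest without Lyz2 ran from 33.2 to 112 CPM, the dendritic gate from 28.0 to 99.8, other Cd3e cells from 12.8 to 41.9, the CD8 T gate from 21.4 to 39.7, the B gate from 5.53 to 43.9, the NK gate from 8.57 to 50.3 and the mesenchymal gate from 11.3 to 25.7.

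**Figure D1:**
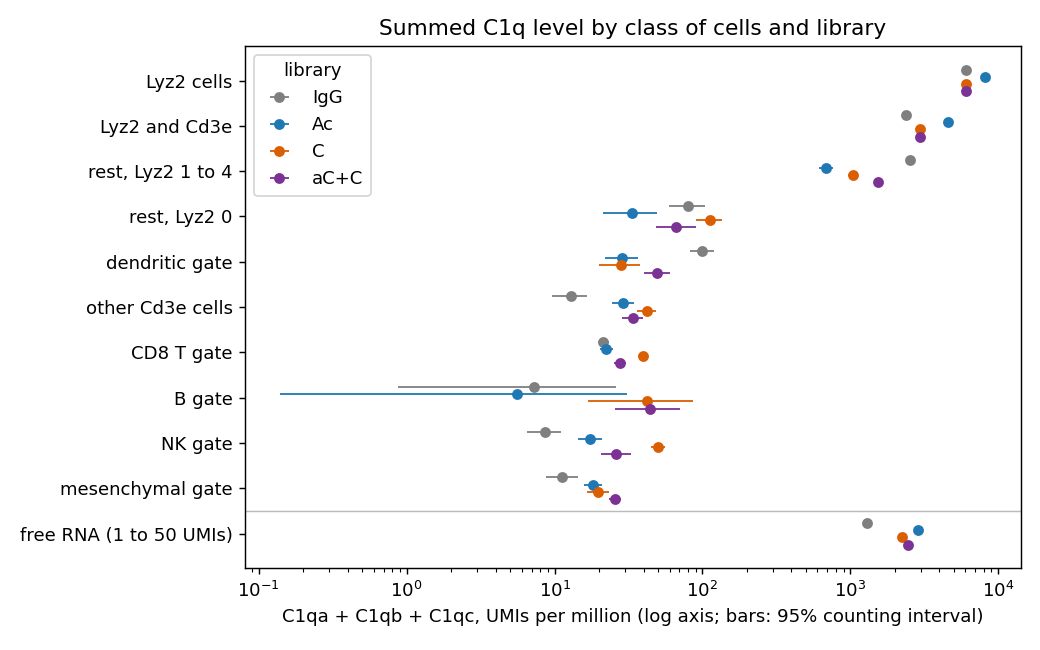
Summed level of C1qa, C1qb and C1qc in CPM on a log axis, for the 10 classes of cells and for barcodes of 1 to 50 UMIs; points are the 4 libraries and bars are 95% counting intervals. Lyz2 cells lie at 6020.2 to 8136 CPM, and the lymphocyte, dendritic and mesenchymal gates at 112 CPM or below, under the free RNA level of 1292 to 2860.5 CPM.

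RNA set free from broken cells is captured in barcodes that hold no cell, and barcodes of 1 to 50 UMIs were used to measure it. They held 1292 CPM of C1q in IgG (1252 to 1332), 2860.5 in Ac (2801 to 2921), 2236 in C (2185 to 2288) and 2442 in aC+C (2383 to 2502). IgG was the lowest and Ac the highest, with no overlap of the intervals. Over all cells of a library the C1q level was 1045, 2333, 2213 and 2105 CPM, so IgG was lowest there too. Over IgG, the free C1q level was 2.21 times as high in Ac (2.13 to 2.30), 1.73 times in C (1.67 to 1.80) and 1.89 times in aC+C (1.82 to 1.97). Apoe, a lipid carrier gene of macrophages, was 2.51, 2.07 and 1.91 times as high in the same barcodes.

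The small C1q signal of lymphocytes was near 1% of the free level. It was 1.66%, 0.782%, 1.78% and 1.14% of it in the CD8 T gate of IgG, Ac, C and aC+C. In T and NK gates together, C1q and Apoe stood in ratios of 0.730, 0.473, 0.544 and 0.456, beside 0.624, 0.551, 0.521 and 0.618 in free RNA. For C1q and Lyz2 these ratios were 1.16, 1.02, 1.08 and 0.760, beside 0.715, 0.954, 0.746 and 0.674. For C1q and Csf1r, a macrophage receptor gene, they were 4.87, 13.6, 9.10 and 11.98, beside 13.4, 15.4, 16.3 and 16.4. The ratios to Lyz2 were thus higher, and those to Csf1r lower, in the T and NK gates than in free RNA. Cells with 5 or more Lyz2 UMIs are left out of these gates, with no such cut on C1q or on free RNA. The ratios to Lyz2 are therefore partly set by the gates. After each cell was thinned to 1000 UMIs, 1.41%, 2.34%, 3.50% and 2.70% of cells of the CD8 T gate had a C1q UMI, against 56.5%, 67.2%, 56.7% and 56.7% of Lyz2 cells. Without thinning the shares were 17.1%, 24.0%, 34.5% and 33.7% in the CD8 T gate, at median depths of 11016 to 13903 UMIs, and 65.5%, 76.6%, 71.4% and 71.4% in Lyz2 cells, at 10264 to 12011. The part of free RNA in these lymphocyte shares was not tested. A few single cells carried much of what was left: 1 cell held 28.5% of the C1q UMIs of the CD8 T gate of IgG, 41.3% of those of the NK gate of C and 40.8% of those of the dendritic gate of IgG.

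The cells with both Lyz2 and Cd3e had more UMIs than the Lyz2 cells, with medians of 26112, 20606, 29912 and 18082. They made up 5.85%, 2.63%, 8.504% and 3.50% of cells, and the doublet caller Scrublet put 41, 47, 82 and 57 of them among the cells most like a pair of cells. The part of the cells with both Lyz2 and Cd3e in the C1q level was not tested beyond the values given below with them included.

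Within the Lyz2 cells, C1q ran from absent to high. The summed count was put per 10000 UMIs of the cell. In IgG, 34.5% of Lyz2 cells had no C1q UMI, against 23.4% in Ac and 28.6% in both C and aC+C. At the other end, 52.7% of Lyz2 cells in IgG (48.3 to 57.0), 64.2% in Ac (61.1 to 67.1), 51.5% in C (48.7 to 54.4) and 51.5% in aC+C (48.9 to 54.2) had 20 or more. The remaining 12.8%, 12.5%, 19.9% and 19.9% had some C1q but less than 20. Near the limit, 7.63%, 9.37%, 7.71% and 8.08% lay within 10 to 40 per 10000, so the limit divides a range. The stretch from 20 to under 30 held 1.91%, 3.77%, 2.07% and 3.07% of cells, beside 2.86%, 3.48%, 2.32% and 1.93% from 50 to under 60, with no gap at the limit. From 60 to under 70 the shares were 4.58%, 3.48%, 3.15% and 3.15%. In IgG and C cells were thus sparser just above the limit than there. Medians over all Lyz2 cells were 32.6 in IgG, 59.3 in Ac, and 27.9 and 25.5 in C and aC+C, and the highest cell had 349.8, 319.5, 356.0 and 288.8. The cells at 20 or more are a range of a measured level and not a cell type. They held 98.3% to 99.2% of the C1q UMIs of Lyz2 cells.

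**Figure D2:**
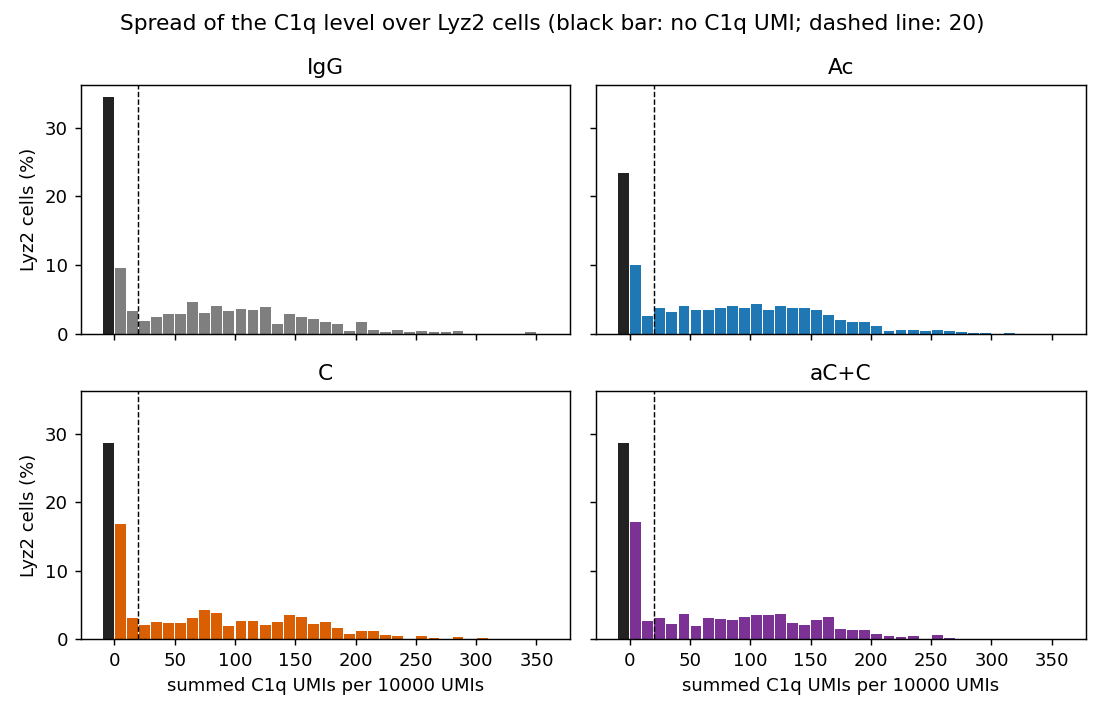
Percent of Lyz2 cells (vertical axis) by summed C1q UMIs per 10000 UMIs (horizontal axis, steps of 10) in each library; the black bar counts cells without a C1q UMI and the dashed line marks 20. A peak of 23.4% to 34.5% at 0 is followed by 9.54% to 17.2% of cells over 0 and under 10, and then by a broad range of levels with no gap at 20.

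Of all cells with 20 or more C1q UMIs per 10000, Lyz2 cells made up 72.1% in IgG, 90.5% in Ac, and 76.3% and 90.9% in C and aC+C. Cells with both Lyz2 and Cd3e made up 23.0%, 7.90%, 20.1% and 6.68%. The rest with 1 to 4 Lyz2 UMIs gave 14 of 63 and 11 of 73 such cells in IgG and Ac, and 23 of 123 and 17 of 89 in C and aC+C. These cells were shallow, with medians of 3121 to 4309 UMIs. They had 2.19 to 6.69 C1q UMIs for each Lyz2 UMI, where Lyz2 cells had 0.719 to 0.911. Since the class is cut at 4 Lyz2 UMIs, a higher ratio to Lyz2 is partly set by that choice. For Apoe, on which no cut was made, they had 4.35, 0.758, 0.604 and 1.68 C1q UMIs for each Apoe UMI. Lyz2 cells had 0.722, 0.615, 0.577 and 0.735, and what sets these ratios was not tested. No cell of the B or mesenchymal gates reached 20 in any library, and 1 cell of the dendritic gate did, in aC+C. The CD8 T gate had 4 such cells in IgG and 1 in C, and in C the NK gate had 2 and the other Cd3e cells 1.

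The limits of the gate were looked at from both sides. Cells without Cd3e at 3 to 4 Lyz2 UMIs held 1494, 167, 328 and 70.1 CPM of C1q in IgG, Ac, C and aC+C, and those at 5 to 6 held 877, 632, 547 and 309.9. Cells with enough Lyz2 but 500 to under 1000 UMIs held 9943, 12617, 9991 and 10754 CPM, in 8 to 31 cells a library, and those with 1000 to under 1500 UMIs held 14799, 11590, 9784 and 7536 CPM, in 13 to 17 cells. Shallow cells of both kinds were above the level of the Lyz2 cells of their library as a whole.

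The 3 genes were found together. Among Lyz2 cells with 10 or more C1q UMIs, all 3 were detected in 98.3% and 97.6% in IgG and Ac, and in 98.2% and 98.3% in C and aC+C. Over all Lyz2 cells, Pearson's r between pairs of members, on log2(1 + UMIs per 10000), lay from 0.931 to 0.962 in the 4 libraries (524 to 1399 cells each). Within the cells at 20 or more, which leaves out the cells without C1q, r lay from 0.571 to 0.754. Values of 1 cell share its total, and no p is given. With Lyz2 itself the summed C1q level had r of 0.002 in IgG, -0.061 in both Ac and aC+C, and -0.063 in C over all Lyz2 cells, and of 0.305 to 0.365 within those at 20 or more.

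C1qa, the gene of the A chain, was the most abundant member in the Lyz2 cells of every library. It had 2487 CPM in IgG (2450 to 2525), 3290 in Ac (3261 to 3318), 2506 in C (2483 to 2529) and 2520.2 in aC+C (2499 to 2541). It ranked 66, 33, 74 and 69 among the 14741 to 16345 genes with a UMI in these cells. Ac was the highest, and the other 3 libraries lay within a few percent of each other.

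C1qb, the gene of the B chain, followed with 2235 CPM in IgG (2200 to 2271), 2945 in Ac (2919 to 2972), 2210.0 in C (2189 to 2232) and 2164 in aC+C (2145 to 2184). Its order of libraries differed at the low end, since aC+C was below IgG with no overlap of the intervals.

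C1qc, the gene of the C chain, had 1298 CPM in IgG (1271 to 1325), 1902 in Ac (1880 to 1923), 1370.1 in C (1353 to 1387) and 1424 in aC+C (1408 to 1440). IgG was the lowest and Ac the highest.

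The make-up of the C1q signal in Lyz2 cells was nearly the same in the 4 libraries. C1qa gave 41.3%, 40.4%, 41.2% and 41.3% of C1q UMIs of Lyz2 cells, and C1qb 37.1%, 36.2%, 36.3% and 35.4%. C1qc gave 21.6% in IgG (21.2 to 22.0), 23.4% in Ac (23.1 to 23.6), 22.5% in C (22.3 to 22.8) and 23.3% in aC+C (23.1 to 23.5). In single cells with at least 50 C1q UMIs the median share of C1qc was 20.9% in IgG, with the middle 80% of cells from 15.2% to 26.4%. The medians in Ac, C and aC+C were 23.1%, 22.3% and 23.0%, well inside that spread. In free RNA C1qb was relatively more abundant, at 40.3%, 38.8%, 40.7% and 39.0%, with C1qc at 19.8%, 21.7%, 20.4% and 21.8%. Classes with few C1q UMIs varied more: C1qc was 9.17% (4.67 to 15.8) of 120 C1q UMIs in the dendritic gate of IgG, and C1qb led in the mesenchymal gate of C, at 47.1% (38.7 to 55.8) of 140.

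The libraries were then compared, as Ac, C and aC+C over IgG, and aC+C over Ac and over C. Comparisons with a library in common share its cells and are not independent. No member reached a ratio of 1.5 in either direction in Lyz2 cells in any of the 5 comparisons. Among genes with 100 or more UMIs in a pair of libraries, the share at least 1.5 times higher and lower was 3.86% and 2.66% of 9416 genes in Ac over IgG, 9.88% and 3.23% of 9869 in C over IgG, and 9.79% and 3.95% of 10007 in aC+C over IgG. It was 6.39% and 2.16% of 10378 genes in aC+C over Ac, and 1.83% and 2.79% of 10617 in aC+C over C. The medians of all these genes lay from 0.976 to 1.02.

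Ac had a higher C1q level than IgG. The ratio was 1.35 for the sum (1.34 to 1.37), 1.32 for C1qa (1.30 to 1.35), 1.32 for C1qb (1.29 to 1.34) and 1.46 for C1qc (1.43 to 1.5003). Of the 9416 genes, 745 had a higher ratio than C1qa, 759 than C1qb and 406 than C1qc. aC+C had less than Ac, with ratios of 0.751 for the sum (0.745 to 0.756), 0.766 for C1qa, 0.735 for C1qb and 0.749 for C1qc.

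C, aC+C and IgG were close. C over IgG was 1.01 for the sum (0.9996 to 1.02), and 1.01, 0.989 and 1.06 for C1qa, C1qb and C1qc. aC+C over IgG was 1.01 (1.00 to 1.03), and 1.01, 0.968 and 1.10. aC+C over C was 1.00 (0.996 to 1.01), and 1.01, 0.979 and 1.04. C1qc was highest among the members in each of these 3 comparisons and C1qb lowest.

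Ac had the highest share of C1q-high cells. Cells at 20 or more held 54.5% of the UMIs of Lyz2 cells in IgG, 71.6% in Ac, and 52.4% and 54.9% in C and aC+C. These cells were chosen by their own C1q level, so a like level within them is partly set by that choice, and the values are a description. Within them the summed level was 10867 CPM in IgG (10761 to 10973), 11271 in Ac (11209 to 11333), 11411 in C (11344 to 11478) and 10940 in aC+C (10881 to 10999). The ratios within these cells were 1.04 for Ac over IgG (1.03 to 1.05), 1.05 for C over IgG (1.04 to 1.06), 1.01 for aC+C over IgG (0.996 to 1.02), 0.971 for aC+C over Ac (0.963 to 0.978) and 0.959 for aC+C over C (0.951 to 0.966). The largest ratio of a single member there was that of C1qc in Ac over IgG, 1.13 (1.10 to 1.15).

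**Figure D3:**
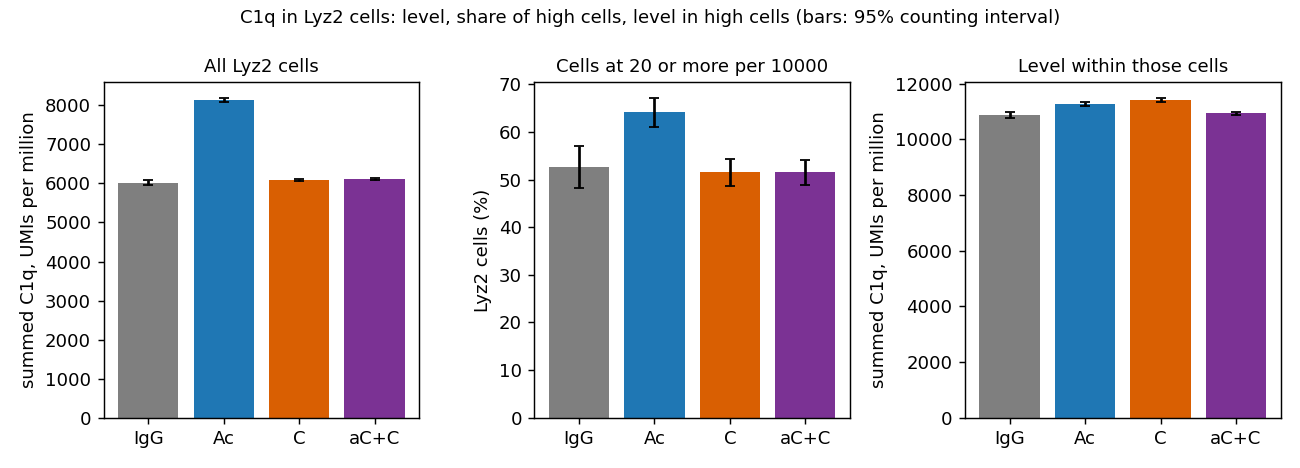
Bars give, for each library, the summed C1q level over all Lyz2 cells (left), the percent of Lyz2 cells with 20 or more C1q UMIs per 10000 (middle) and the level within those cells (right), with 95% counting intervals. Ac stands out in the left and middle panels, at 8136 CPM and 64.2%, while the right panel, of cells chosen by this same level, runs from 10867 to 11411 CPM.

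Markers of other cells moved with the libraries inside the Lyz2 gate. The 8 NK genes summed to 600 CPM in IgG, 62.6 in Ac, and 332 and 68.2 in C and aC+C, with none at 0 in any library. The 8 mesenchymal genes summed to 698, 571, 1132 and 1132 CPM. The 8 neutrophil genes summed to 126, 81.3, 265 and 449 CPM, with 2 of them at 0 in IgG and 2 in Ac. Leaving out Lyz2 cells with NK, B cell or mesenchymal transcripts removed 43 of 524 and 35 of 1035 cells in IgG and Ac, and 146 of 1207 and 87 of 1399 in C and aC+C, with medians of 32425 to 65817 UMIs. The ratios were then 1.25 for Ac over IgG, 1.20 for C over IgG, 1.08 for aC+C over IgG, 0.871 for aC+C over Ac and 0.901 for aC+C over C. The shares of cells at 20 or more were then 54.7%, 64.3%, 54.8% and 52.7%. With the Cd3e cells included, Ac over IgG was 1.81, past the 1.5 used here, C over IgG 1.14, aC+C over IgG 1.35, aC+C over Ac 0.744 and aC+C over C 1.18. Ac was the highest library in all of these settings, while the order of IgG, C and aC+C was not kept. Both settings were chosen after the data were seen.

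The genes most like C1q over Lyz2 cells were led by Lgmn and Apoe, and 3 of the first 10 were on the list of macrophage genes. Likeness was the mean over the 4 libraries of Pearson's r with the summed C1q level, on log2(1 + UMIs per 10000), over the 4165 Lyz2 cells and the 7341 genes with a UMI in at least 10% of them in every library. The points share each cell's depth, and no p is given. The 10 highest were Lgmn (0.63), Apoe (0.62), Cxcl16 (0.54), Ms4a7 (0.54), Trem2 (0.53), Mrc1 (0.53), Cd81 (0.51), Cd72 (0.51), Dab2 (0.51) and Cd63 (0.495), where the median of all genes was 0.025 and members had at least 0.931 with each other. Lgmn encodes the lysosomal protease legumain, Trem2 a lipid receptor of macrophages, Mrc1 the mannose receptor CD206 and Cxcl16 a chemokine and scavenger receptor. Dab2 encodes an endocytic adaptor, and Cd81 and Cd63 encode tetraspanins.

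Their levels are given in high and low cells as a description, since the genes were chosen for following C1q over these cells. Apoe stood at 2566 CPM in Lyz2 cells under 5 C1q UMIs per 10000 in IgG and at 13074 in those at 20 or more, at 4211 and 16767 in Ac, at 3000 and 17314 in C, and at 1538 and 13727 in aC+C. Lgmn stood at 327 and 1446 CPM in low and high cells of IgG, 506 and 1744 in Ac, 327 and 1686 in C, and for aC+C 238 and 1706. Mrc1 was 5.25, 7.09, 7.10 and 17.0 times as high in the high cells. Trem2 was 3.83, 3.04, 4.22 and 4.85 times as high. Cd63 differed least in IgG, C and aC+C, by 1.71, 1.46 and 1.39 times. In Ac it differed by 2.46 times, and Cxcl16 least, by 2.43 times.

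The 5 lowest were Plac8 (-0.63), S100a4 (-0.59), S100a6 (-0.55), Gsr (-0.53) and Tmsb10 (-0.52). Plac8 is a marker of monocytes, S100a4 and S100a6 encode calcium-binding proteins, Gsr glutathione reductase and Tmsb10 a thymosin that binds actin. Plac8 stood at 2764 CPM in low and 808 in high cells of IgG, 3138 and 350.0 in Ac, 2530.4 and 482 in C, and for aC+C 3572 and 649. S100a4 in the high cells was 0.346, 0.228, 0.303 and 0.222 times its level in the low cells.

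**Figure D4:**
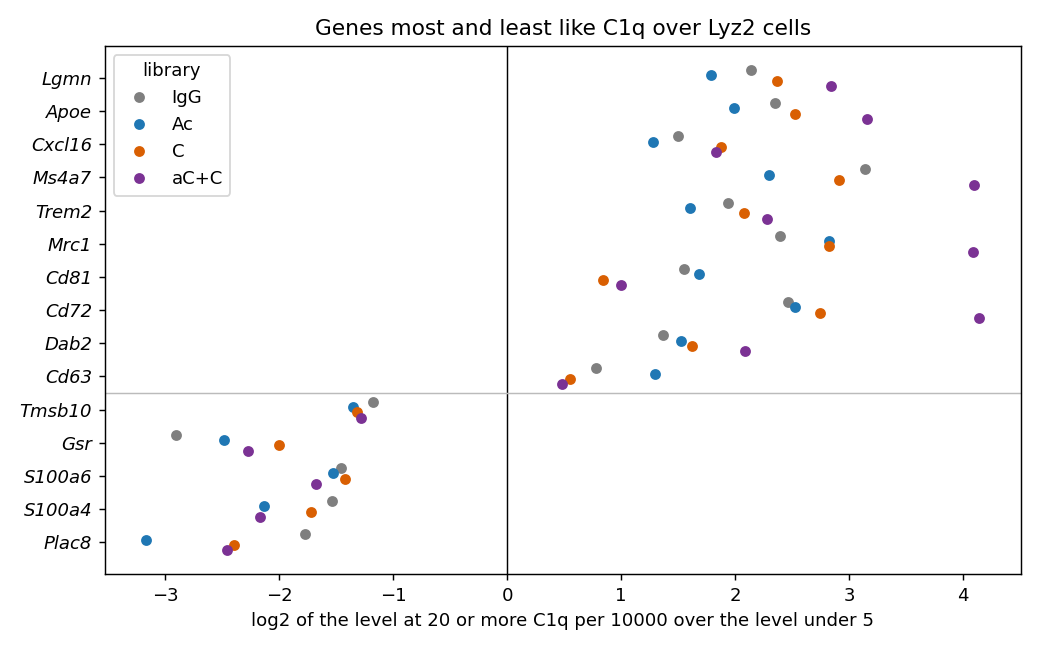
For the 10 genes most like C1q (top) and the 5 least like it (bottom), the log2 ratio of the level in Lyz2 cells at 20 or more C1q UMIs per 10000 to that under 5, a point per library. All points of the upper genes lie right of 0 and all of the lower left of it, a direction that the choice of genes by likeness sets.

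The marker lists were counted across the same split, taken as genes at least 1.5 times apart between high and low cells among those with 100 UMIs. Of all such genes, 9.1%, 10.1%, 9.75% and 14.1% were higher in the high cells of IgG, Ac, C and aC+C, and 6.48%, 8.69%, 15.5% and 14.5% were lower. Of 10 macrophage genes, led by Apoe, 9 were higher in the high cells of IgG and also of C, 7 in Ac and 10 in aC+C, and none was lower. Of 8 monocyte genes, led by Plac8, 7, 8, 6 and 8 were lower and none was higher. Neutrophil genes were lower in 2 of 3, 3 of 4, 5 of 6 and 5 of 6 cases, and their sum in cells under 5 reached 1031 CPM in aC+C against 63.8 in the high cells. These counts of macrophage, monocyte and neutrophil genes lay above the shares of all genes. Of the lists given next, so did the lower mesenchymal and NK genes and the higher lipid-associated and resident macrophage genes. The inflammatory myeloid genes did so on both sides. Scarce genes, however, reached 100 UMIs mainly through the cells, high or low, in which they were abundant. The counts of lists with few measured genes, such as the resident macrophage, neutrophil and NK genes, are therefore partly set by this filter. For these lists, standing above the shares of all genes is a description only. Mesenchymal genes were lower in 7 of 7, 3 of 7, 7 of 7 and 6 of 7 cases, and NK genes in 6 of 7, 2 of 2, 8 of 8 and 1 of 2, with the other of the 2 higher. Of the genes of lipid-associated macrophages, 2 of 7, 5 of 8, 4 of 8 and 4 of 8 were higher and 1, 2, 1 and 0 lower. Of the resident macrophage genes 2 of 3, 4 of 5, 2 of 3 and 3 of 4 were higher and 0, 1, 1 and 1 lower. Their sum in C was 141 CPM in low and 131 in high cells. It was led by F13a1, the 1 gene that was lower there, at 139 and 54.9 CPM, so the sum does not show the rise of the others. Inflammatory myeloid genes were split, with 2, 2, 1 and 2 higher and 3, 3, 3 and 2 lower of 7 or 8. Immediate early genes, which respond to handling of tissue, summed to 8534 CPM in low and 8561 in high cells of IgG, to 9236 and 8778 in Ac, to 7523 and 7482 in C, and for aC+C to 7184 and 7991.

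The same lists between libraries give the setting for the C1q ratios over IgG in Lyz2 cells. Of all genes measured, 3.86%, 9.88% and 9.79% were at least 1.5 times higher in Ac, C and aC+C, and 2.66%, 3.23% and 3.95% lower. Beside these shares, 1 gene of a short list is not read as a result. The macrophage genes had medians of 1.29 in Ac, and 0.992 and 0.996 in C and aC+C, with 4, 0 and 2 of 10 at least 1.5 times higher and 0, 1 and 0 lower. In Ac they ran from 1.02 for Mrc1 to 1.79 for Pf4, a range that holds all 3 C1q genes. The monocyte genes had medians of 0.757, 1.01 and 1.12, with Chil3 highest in Ac, at 1.81, with 1, 1 and 2 of 8 higher and 2, 1 and 2 lower. The lipid-associated genes had medians of 1.30, 1.24 and 1.31 and were the most divided, from 0.292 for Lpl to 2.48 for Gpnmb in Ac, with 2 of 8 higher and 1 lower in each comparison. Lpl encodes lipoprotein lipase and Gpnmb a membrane glycoprotein of lipid-laden macrophages. The resident macrophage genes had medians of 0.880, 0.514 and 0.728 over 5, 3 and 5 genes, with none higher and 1, 2 and 2 lower. The inflammatory myeloid genes had medians of 1.35, 0.764 and 1.23, with 3, 0 and 3 of 8 higher and 0, 2 and 0 lower, and Nos2, the gene of inducible nitric oxide synthase, highest at 5.73, 1.40 and 8.95. The inflammatory genes were thus above IgG in Ac and aC+C by their median and below it in C. The neutrophil genes had medians of 0.749, 2.53 and 3.95 over 4, 6 and 6 genes, with 1, 5 and 5 higher, and 2 lower in Ac. Camp and Ngp were measured in C and aC+C over IgG but not in Ac, and both were higher there. Scarce genes thus passed the filter through the library where they were high, which partly sets these counts. Medians over different numbers of genes, here and in other lists, cannot be compared between libraries. The NK genes had medians of 0.082, 0.697 and 0.045, with 7, 3 and 7 of 8 lower, while Klra4, a gene of an NK receptor family, was 1.87 times as high in C and 1.73 times in aC+C. The mesenchymal genes had medians of 0.893, 1.79 and 1.59, with 1 of 7, 4 of 7 and 5 of 8 higher, and 2 lower in Ac.

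Few genes of the remaining lists had 100 UMIs, and their counts stand beside the same shares of all genes. The dendritic genes had medians of 0.915, 0.508 and 0.755 over 6, 4 and 6 genes, with 2, 1 and 1 higher and 3 lower in each comparison. The T cell genes had medians of 0.482, 0.981 and 0.731 over 3 genes, with 3, 0 and 1 lower. The B cell list had 2 genes and medians of 0.972, 1.15 and 1.19, with 0, 1 and 1 higher and as many lower, the mast cell list 2 genes and medians of 0.532, 0.559 and 0.590, with 1 lower in each, and the epithelial list only Krt8, at 3.89, 10.0 and 8.63. No erythroid gene had enough counts. The 10 immediate early and stress genes had medians of 1.08, 0.867 and 0.922, with 2, 0 and 0 higher and 0, 1 and 0 lower.

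The other genes of the pathway were lower than each C1q gene in Lyz2 cells, with Calr the highest of them. Of 25 with at least 100 UMIs, 18 were in enough cells for r with C1q to be computed, and none of those had r over 0.43. Of 15 measured proteases and initiating molecules, 5 had at least 100 UMIs over the 4 libraries. C1ra and C1s1, the genes of the proteases that C1q activates, were highest in the mesenchymal gate, with medians over the libraries of 123 and 94.1 CPM, against 21.9 and 9.06 CPM in Lyz2 cells. C1rl, a related protease gene, had 10.9 CPM in Lyz2 cells. C4b, the gene of C4, had 38.7 CPM in Lyz2 cells and 13.6 in the mesenchymal gate, and Fcna, the gene of ficolin A, had 9.85 CPM, against at most 0.683 in any library in the T, NK, dendritic and mesenchymal gates. C1q and the genes of its proteases were most abundant in different classes.

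In C3 and the alternative pathway, 3 of 4 genes had enough counts. Cfp, the gene of properdin, had 252 CPM in Lyz2 cells and 118 in the dendritic gate. C3, the central component, had 164 CPM in Lyz2 cells and 46.3 in the mesenchymal gate, and Cfb, the gene of factor B, had 32.3. Over Lyz2 cells, r with C1q was 0.30 for Cfp, 0.18 for Cfb and -0.14 for C3. Of 7 measured genes of the terminal pathway, none reached 100 UMIs in Lyz2 cells.

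Of 14 genes of inhibitors, 6 had enough counts, and 5 are given here. Clu, the gene of clusterin, had 106 CPM in the mesenchymal gate, 79.3 in the dendritic gate and 14.8 in Lyz2 cells. Serping1, the gene of the C1 inhibitor, had 17.3 CPM in the mesenchymal gate and 1.31 in Lyz2 cells. Cr1l, the gene of Crry, was spread over all classes, with 53.1 CPM in Lyz2 cells and 94.97 in the NK gate. Cd55 had 48.5 CPM in the NK gate and 1.63 in Lyz2 cells, and Cd59a had 2.87 CPM in Lyz2 cells.

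Of 14 receptors and C1q-binding proteins, 11 had enough counts. The receptors of the cleavage products, C3ar1 (235 CPM), C5ar1 (148) and C5ar2 (18.5), and the chain Itgam of complement receptor 3 (282) were concentrated in Lyz2 cells. Itgax, Itgb2, Cd93 and Lair1 had 85.0, 259.9, 77.1 and 169 CPM there. Itgb2 had 213 in the CD8 T gate too, and Itgax 67.8 in the dendritic gate and 64.3 in the NK gate. Lrp1, Calr and C1qbp, with 229, 658 and 95.5 CPM in Lyz2 cells, were at similar levels or higher in the mesenchymal gate, at 199, 814 and 193. C3ar1 came nearest to C1q among the 18 complement genes with a value of r, at 0.43, and Lair1, an inhibitory collagen receptor that binds C1q, followed with 0.37.

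**Figure D5:**
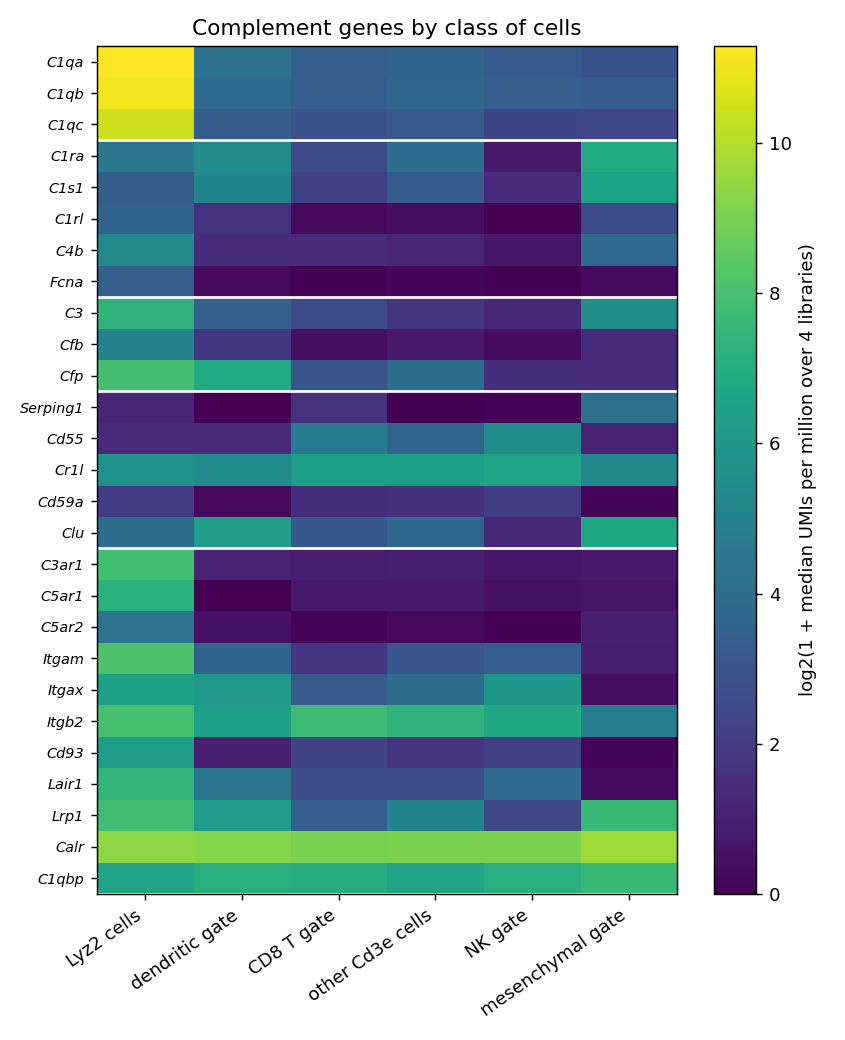
Rows are the complement genes given here that had at least 100 UMIs in Lyz2 cells, grouped as C1q, initiation, C3 and alternative pathway, inhibitors and receptors (white lines); columns are classes of cells, and colour is log2(1 + median CPM over 4 libraries). C1qa, C1qb and C1qc are brightest in Lyz2 cells, while C1ra, C1s1 and Clu are brightest in the mesenchymal gate.

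Between libraries, complement genes other than C1q were counted at 1.5 times in Lyz2 cells. Over IgG, Ac had 1 of 5 initiating genes lower and none higher, beside 2.66% of all genes lower. C had 2 of 5 initiating genes and 1 of 3 alternative pathway genes lower, and 1 of 3 inhibitors higher, beside 3.23% lower and 9.88% higher. In aC+C, 1 of 4 inhibitors was higher and 1 lower, beside 9.79% and 3.95%. None of 11 receptors passed over IgG. Of the initiating genes, C1s1 was lower in Ac over IgG, at 0.512, and C4b (0.648) and Fcna (0.566) were lower in C over IgG, while none of 5 passed in aC+C over IgG, and C1s1 was higher in aC+C over Ac, at 2.56. C1s1 had 9.54 CPM in IgG, 4.89 in Ac, and 8.57 and 12.5 in C and aC+C. Cfb was lower in C over IgG, at 0.609, and C3 was higher in aC+C over C, at 1.80, with 167, 160, 115 and 206 CPM in IgG, Ac, C and aC+C. Clu had 9.40, 7.87, 20.3 and 31.5 CPM, and passed in C over IgG (2.16), aC+C over IgG (3.36), aC+C over Ac (4.01) and aC+C over C (1.56). C1s1 and Clu are most abundant in the mesenchymal gate, and the mesenchymal genes given above were higher in C and aC+C than in IgG. Clu was above IgG in both, C1s1 in aC+C only. Serping1, also higher in that gate than in Lyz2 cells, was above IgG in neither. The part of mesenchymal transcripts in these values was not tested. Serping1 had 59 UMIs in IgG, 3 in Ac, and 3 and 54 in C and aC+C, with a ratio of 0.281 in aC+C over IgG. Of 11 receptor genes, only Itgax passed, at 0.659 in aC+C over Ac. C1q was highest in Ac, C1s1 in aC+C and C4b, with 44.5 CPM, in IgG.

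Of 20 genes of other proteins with a C1q domain, 4 had at least 100 UMIs in Lyz2 cells. Emilin2, which encodes a matrix glycoprotein, had 173 CPM in Lyz2 cells and at most 23.3 in any library in the T, NK, dendritic and mesenchymal gates, with r of -0.39 with C1q. Emilin1 had 27.7, C1qtnf6 16.1 and C1qtnf12 14.5 CPM in Lyz2 cells, and all were higher in other classes. C1qtnf6 had 107 CPM in the NK gate and 61.3 in the CD8 T gate. In the mesenchymal gate Emilin1 had 55.5 and C1qtnf12 37.4 CPM, and C1qtnf12 had 39.1 in other Cd3e cells. Over IgG in Lyz2 cells, Emilin1 was 1.60 times as high in Ac and 1.55 times in C. C1qtnf6 was 0.562 times as high in Ac and 0.512 times in aC+C, and C1qtnf12 1.72 times in C and 1.69 times in aC+C. The NK genes inside the Lyz2 gate were also lowest in Ac and aC+C. The part of transcripts from other cells in these ratios was not tested. Over Lyz2 cells, r with C1q was 0.18 for Emilin1 and 0.068 for C1qtnf6.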

How the data were processed

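Droplet single-cell libraries, 1 per group, were analysed from matrices of UMI counts, which the authors deposited raw, with a row for each gene and a column for each barcode; the deposited barcode and gene lists (other: names, not values) give columns and rows. Per the submitters' processing notes, Cell Ranger 2.1.1 and the build mm10 were used, while the file headers name software version 3.0.2. The labels name v2 reagents, whereas 6794880 barcodes are listed, the size of a later list. Which annotation was used is not given in the sources used here, nor how reads were aligned. The members, gates and gene lists were chosen with earlier results of these data known.

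Cells had at least 1000 UMIs and at most 10% mitochondrial UMIs. Classes were set in this order by UMIs: Cd3e at least 1 with Lyz2 at least 5; Lyz2 at least 5; Cd3e with Cd8a or Cd8b1 at least 1 (CD8 T gate); other Cd3e; Ncr1 and Klrb1c at least 2 (NK); Cd79a and Ms4a1 at least 2 (B); Flt3, Ccr7, Xcr1 and Zbtb46 at least 2 (dendritic); Col1a1, Col3a1 and Dcn at least 5 (mesenchymal); the rest. No doublets were removed in the values reported. UMIs were summed per class and scaled to CPM. Intervals at 95% are exact Poisson for levels, conditional binomial for ratios and Clopper-Pearson for shares; molecules of 1 cell are not independent. Ratios were counted at 1.5 among genes with 100 or more UMIs in a pair of libraries, with 3 UMIs in place of 0 in the denominator. The genes named were the members, the 10 most and 5 least like C1q, the complement genes with at least 100 UMIs, and from each marker list its leading gene and extremes; the values of 2 genes that this rule names are not reported here. Of 199 listed genes, 1 was found by gene ID and 3 were not found. Python 3.11.15, numpy 2.4.6, scipy 1.17.1, pandas 2.3.3 and the Scrublet function of scanpy 1.11.5 were used, and the ratio and likeness functions were tested on simulated data. Other cell filters, gates, doublet removal, subtraction of free RNA and weights were tried as alternatives.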

Additional observations from a re-analysis of the deposited data

How the results depend on the processing

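Ratios are given in the order Ac, C and aC+C over IgG, then aC+C over Ac and over C. Of 50 ratios of the C1q sum under 10 alternatives, 20 stayed within the counting interval of the value reported, 29 moved out of it, and 1 whose interval lay above 1 turned below it, that of aC+C over IgG with the same weight for every cell (0.971); that interval is far narrower than any spread between animals is likely to be, and the cause of the moves was not tested. Ac over IgG ran from 1.21 to 1.81 and aC+C over Ac from 0.744 to 0.871, while C over IgG (0.990 to 1.20), aC+C over IgG (0.971 to 1.35) and aC+C over C (0.901 to 1.18) lay on both sides of 1, the first and last of these with reported intervals that hold 1. The values that moved were 1.21, 1.04, 0.803 and 0.938 with the same weight for every cell (all but aC+C over IgG), 1.31, 1.06, 0.808 and 1.05 with at least 10 Lyz2 UMIs (all but C over IgG), and 1.32, 1.04, 1.09, 0.824 and 1.05 with Lyz2 at 5 per 10000 UMIs. They were 0.990 for C over IgG and 1.03 for aC+C over C with a mitochondrial maximum of 5%, and 0.999, 1.03, 0.761 and 1.03 with doublets removed (all but Ac over IgG). With Cd3e cells included they were 1.81, 1.14, 1.35, 0.744 and 1.18, and without cells with NK, B or mesenchymal transcripts 1.25, 1.20, 1.08, 0.871 and 0.901, both chosen after seeing the data. Minimums of 500 and 5000 UMIs and 5% free RNA subtracted moved none out of its interval.

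Counts of genes at least 1.5 times apart stayed within 1.5 times of the reported ones in 32 of 40 cases for higher and 32 of 40 for lower genes. With doublets removed, 241 genes were higher in Ac over IgG (363 as reported), 638 higher in aC+C over IgG (980) and 525 lower in aC+C over C (296), and with at least 10 Lyz2 UMIs 355 were higher in aC+C over Ac (663). With Cd3e cells included, 633 were higher and 714 lower in Ac over IgG (363 and 250), 916 lower in aC+C over IgG (395), and 347 higher and 772 lower in aC+C over C (194 and 296). Without cells with NK, B or mesenchymal transcripts, 138 were lower in Ac over IgG, 207 higher and 182 lower in C over IgG (975 and 319), 310 higher and 225 lower in aC+C over IgG, 179 higher in aC+C over Ac and 167 lower in aC+C over C. The share of Lyz2 cells at 20 or more C1q UMIs per 10000 moved in 1 of 28 cases, to 54.8% in C without those cells, and stayed highest in Ac (63.0% to 64.6%, against 50.2% to 54.8% in the others). By Spearman's rho, 9 of the 10 genes most like C1q and all 5 of the least like it were the same. No paired analysis was possible because each group has 1 library, and for the same reason none could be left out.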

Other observations

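Barcodes between free RNA and cells also held C1q. In barcodes of 51 to 200 UMIs the summed level was 1777 CPM in IgG, 2249 in Ac, and 2286 and 2236 in C and aC+C, and in those of over 200 and under 500 UMIs it was 1602, 1688, 2032 and 1816 CPM. In barcodes of 500 to under 1000 UMIs, where 42.5% to 55.5% of UMIs were mitochondrial, it was 897, 2049, 1808 and 2052 CPM. The level was lowest in barcodes of 1000 to under 5000 UMIs, at 707, 782, 885 and 774 CPM, and higher again in those of 5000 to under 20000 UMIs, at 1429, 2328, 2900.5 and 2834 CPM. These bins take all barcodes, with no mitochondrial maximum.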
